A study of Mus musculus with 60 samples.

Results

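Expression of 40 genes of S phase and mitosis was followed in fetal mouse brain. A gene was taken where a transcript cluster (a row of the array, usually 1 per gene) carried its symbol and no other, and the cluster with the highest mean was used. This gave 39 of the 40 named genes, out of 19938 genes on the array with a symbol of their own. Ccnb1 had no such row and was not analysed here. Signals are log2 values from Affymetrix Mouse Gene 1.0 ST arrays.

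Pregnant mice on a B6.129 strain background received chlorpyrifos oxon (CPO), the active metabolite of the insecticide chlorpyrifos, on gestational days 6 to 17. Fetal brains were taken on day 18, and the RNA of the brains of 1 dam was combined on a single array. Every array is thus a mixture of littermates, and a replicate is a dam. Dams had been drawn at random after those with an outlying brain acetylcholinesterase activity were set aside. The 60 arrays fall into 12 labelled groups of 5. Wild type (WT) mice received 0, 0.75 or 0.85 mg/kg/d. Mice without Pon1, labelled PON1-knockout (KO), received 0, 0.50 or 0.75 mg/kg/d. Mice with the human transgene tgHuPON1Q192 (Q-tg) or tgHuPON1R192 (R-tg) received 0, 0.75 or 0.85 mg/kg/d. PON1 is the plasma enzyme that hydrolyses CPO, and the promoter of the transgenes is not given in the labels. The design asks whether CPO in pregnancy alters fetal brain expression and whether PON1 status modifies it.

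The genotype labels did not match the Pon1 signal on 10 arrays. Pon1 was at most 5.67 on 15 arrays and at least 9.72 on the other 45. Of the 15 arrays labelled KO, 5 were high, and of the 45 labelled otherwise, 5 were low. The 10 arrays are 3 of KO 0.75, 2 of KO 0, and 1 each of WT 0, WT 0.85, Q-tg 0, Q-tg 0.85 and R-tg 0.75. Groups are therefore named by their label throughout, and comparisons are given with all 60 arrays and with the 50 that are left without these. Arrays also differed in their signal distribution, which is summarised here by the lower quartile of each array's signals. It ranged by group mean from 6.28 in WT 0.75 to 6.39 in WT 0.85.

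In the fetal brain, neurons and glia are made by dividing progenitors. Radial glia divide along the ventricle, and their nuclei move to its surface for mitosis. Intermediate progenitors divide away from the ventricle. DNA replication genes are switched on by E2F factors as cells enter S phase. Genes of mitosis are repressed in resting cells by the DREAM complex, which binds a promoter element called the CHR, and are switched on later by B-MYB and FOXM1. CCAAT boxes, bound by NF-Y, often lie beside a CHR.

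These elements are visible in the RefSeq promoter windows of the GRCm38.p6 assembly, which run from 250 bases before to 50 after the start of transcription. A window was found for 32 of the 39 genes, 8 of replication and 24 of mitosis. The promoters shown are those of the mitosis genes that, among genes with a window, followed the other members most closely (Bub1b, Plk1, Prc1), of a replication gene that did so (Mcm6), and of the gene that did not follow them (Ndc80). Each is the 250 bases before the start, 5′ to 3′ on the gene's own strand, at chr2:118597961-118598210 (+ strand), chr7:122159185-122159434 (+ strand), chr7:80294226-80294475 (+ strand), chr1:128359706-128359955 (- strand) and chr17:71526858-71527107 (- strand). Capitals mark the matches on either strand. A CHR was searched in its usual form TTTGAA. A variant with a single other base counted as well. A CCAAT box was any run of the letters that name it. An E2F site was any of TTTGGCGC, TTTCGCGC, TTTCCCGC or TTTGCCGC.
Bub1b: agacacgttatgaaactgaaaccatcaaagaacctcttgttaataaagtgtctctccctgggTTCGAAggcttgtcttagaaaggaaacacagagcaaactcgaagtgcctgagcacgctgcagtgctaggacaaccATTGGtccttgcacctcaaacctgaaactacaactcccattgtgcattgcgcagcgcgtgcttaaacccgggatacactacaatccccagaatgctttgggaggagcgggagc
Plk1: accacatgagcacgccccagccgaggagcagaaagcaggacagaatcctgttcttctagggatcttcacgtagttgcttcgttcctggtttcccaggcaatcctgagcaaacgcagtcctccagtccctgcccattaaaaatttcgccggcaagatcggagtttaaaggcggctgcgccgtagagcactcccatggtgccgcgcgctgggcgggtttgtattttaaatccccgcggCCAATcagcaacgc
Prc1: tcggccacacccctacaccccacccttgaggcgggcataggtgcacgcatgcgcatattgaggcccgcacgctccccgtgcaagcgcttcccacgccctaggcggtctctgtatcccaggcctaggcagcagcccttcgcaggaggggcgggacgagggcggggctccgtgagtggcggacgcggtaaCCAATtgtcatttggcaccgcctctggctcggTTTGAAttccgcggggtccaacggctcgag
Mcm6: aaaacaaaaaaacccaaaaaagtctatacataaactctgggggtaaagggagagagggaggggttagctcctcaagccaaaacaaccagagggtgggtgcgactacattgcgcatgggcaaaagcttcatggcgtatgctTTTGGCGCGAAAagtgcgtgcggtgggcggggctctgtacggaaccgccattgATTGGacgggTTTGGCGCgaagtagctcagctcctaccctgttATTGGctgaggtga
Ndc80: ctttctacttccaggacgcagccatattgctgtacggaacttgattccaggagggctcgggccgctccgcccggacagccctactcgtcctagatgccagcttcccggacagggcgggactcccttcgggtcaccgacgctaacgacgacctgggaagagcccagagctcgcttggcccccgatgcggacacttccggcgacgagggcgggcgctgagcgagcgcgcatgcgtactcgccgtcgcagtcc

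Bub1b and Prc1 each hold 1 CHR and 1 CCAAT box in these 250 bases. The CHR of Bub1b is the variant, TTCGAA. Plk1 holds 1 CCAAT box near the start, and its CHR lies in the 50 bases after the start. Mcm6 holds no CHR, 2 CCAAT boxes and 3 E2F matches, of which a pair overlaps on opposite strands. Ndc80 has no capital letters, because its only match is a CHR in the 50 bases after the start. Over the whole windows, a CHR was present in 20 of 24 mitosis genes (83.3%) and 2 of 8 replication genes (25%), against 21.7% of the 27025 genes with a window. A CCAAT box was present in 19 of 24 mitosis genes (79.2%) and in 8 of 8 replication genes, against 41.1% of all genes. An E2F site was present in 1 of 24 mitosis genes (4.17%), which was Cdk1, and in 4 of 8 replication genes (50%), against 2.61%. The 4 were Mcm3, Mcm5, Mcm6 and Mcm7. A gene with several windows was counted once, if any of them held the motif, and 2 E2F matches may overlap. These are matches of letters, and binding was not measured.

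All but 1 of the 39 genes were detected above the level of the olfactory receptors, a family made for the nose. That level was 6.54, under which 95% of the 1035 clusters of olfactory receptor genes lay, and clusters below it are called dim. Hmmr, a spindle protein, was dim, with a mean of 6.50 over the 60 arrays. The signals of different probe sets cannot be set against each other, so each gene is described against its own mean. The SD over the 60 arrays was between 0.074 and 0.152 log2 units, with a median of 0.107. The median SD of all genes was also 0.107, and that of genes above the dim level was 0.092.

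**Figure D1:**
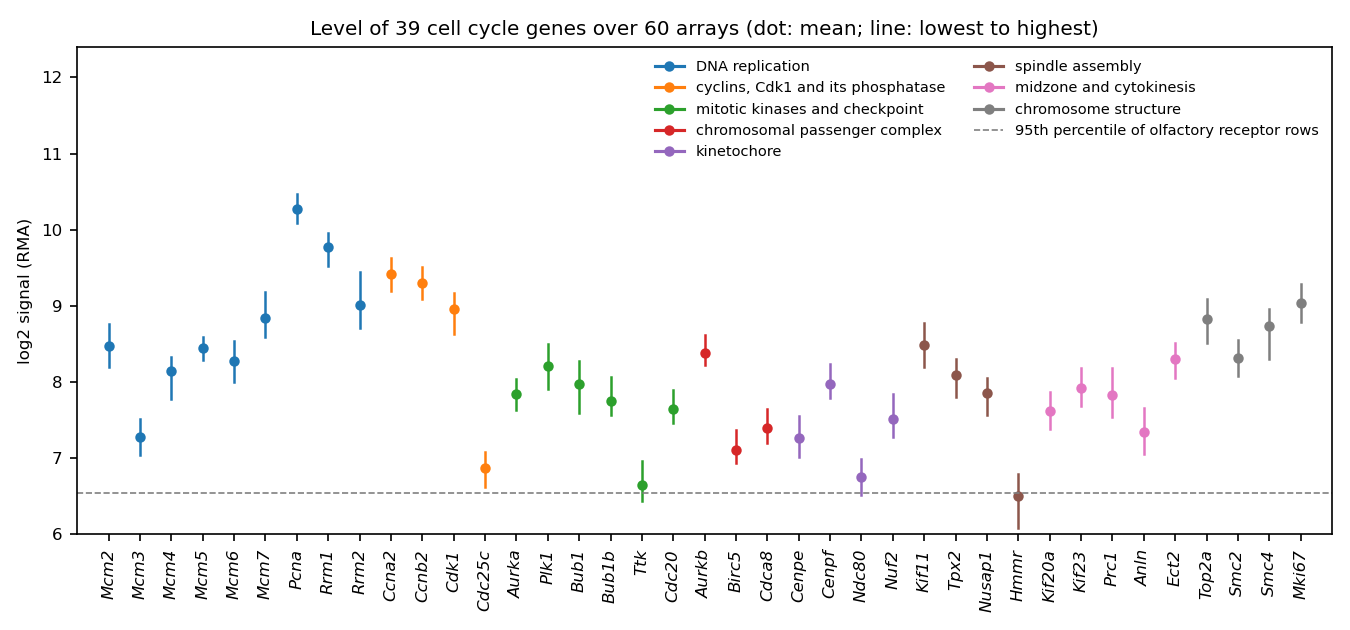
Log2 signal of each of the 39 genes (dot, mean over 60 arrays; line, lowest to highest array), grouped and coloured by role. The dashed line is the dim level of 6.54, and only the mean of Hmmr lies under it.

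DNA replication was represented by 9 genes. Mcm2 to Mcm7 encode the helicase that unwinds DNA at the fork, and their means were 8.48, 7.27, 8.14, 8.44, 8.28 and 8.85 in the order of their numbers. Mcm5 ran from 8.29 to 8.59, and its SD of 0.074 was the lowest of the 39, with that of Pcna (0.075) next to it. Mcm7 ran from 8.59 to 9.18. Pcna, the sliding clamp of DNA polymerase, had a mean of 10.27 and a range of 10.09 to 10.47. Rrm1 and Rrm2, the subunits of ribonucleotide reductase, had means of 9.77 and 9.01, and the range of Rrm2 was 0.74, the widest among the 39.

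The genes that carry cells into mitosis were measured at the levels that follow. Ccna2 and Ccnb2, cyclins that bind Cdk1, had means of 9.42 and 9.30, Cdk1 one of 8.95, and Cdc25c, a phosphatase that activates Cdk1, one of 6.87. Among kinases and checkpoint genes the means were 7.84 for Aurka, 8.21 for Plk1, 7.97 for Bub1, 7.76 for Bub1b, 6.65 for Ttk and 7.64 for Cdc20, the activator of the anaphase-promoting complex. Bub1 spread from 7.59 to 8.27. The chromosomal passenger complex, which corrects faulty spindle attachments, gave 8.38 for its kinase Aurkb, 7.11 for Birc5 and 7.40 for Cdca8.

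The remaining members act at the kinetochore, on the spindle, in cytokinesis and on chromosome structure. At the kinetochore, Cenpe and Cenpf had means of 7.27 and 7.98, and Ndc80 and Nuf2, partners in the complex that holds microtubules, had 6.76 and 7.52. The spindle motor Kif11 had 8.49, and the spindle proteins Tpx2 and Nusap1 had 8.09 and 7.85. The genes of the midzone and cytokinesis gave 7.62 for Kif20a, 7.93 for Kif23, 7.84 for Prc1, 7.35 for Anln and 8.31 for Ect2. Top2a, which untangles DNA, had a mean of 8.82, the condensin subunits Smc2 and Smc4 had 8.32 and 8.73, and Mki67, the Ki-67 antigen of dividing cells, had 9.04. Hmmr had the highest SD, 0.152, followed by Bub1 with 0.144.

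The 39 genes varied together from array to array. With the mean of each labelled group taken off, so that only differences among dams of 1 group remain, the median Pearson r of the 741 pairs was 0.535. Of these pairs, 713 (96.2%) were above 0, and the range was -0.173 to 0.883. The median over pairs of all genes was 0.051, and over pairs of genes above the dim level it was 0.121. These correlations describe 60 arrays that share 1 deposited normalization, and each array's values share its signal distribution. The mean of the 39 genes, each centred on its own mean over the arrays, was correlated with the lower quartile of the array at r = -0.519. With group means taken off the genes, r was -0.459. After the lower quartile was taken off by regression, the median r of the pairs was 0.487. In pooled tissue, fewer dividing cells and less RNA per dividing cell cannot be told apart.

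**Figure D2:**
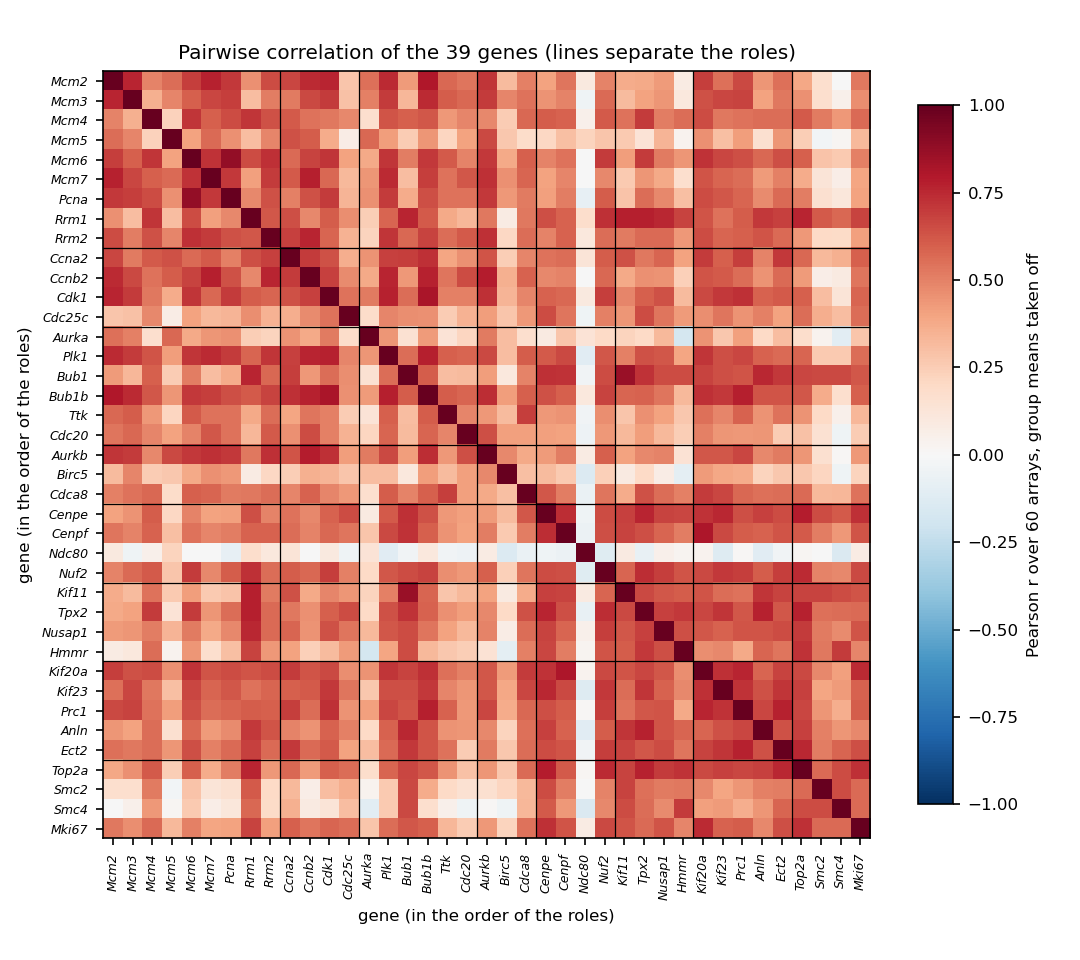
Pearson r of each pair of the 39 genes over 60 arrays after group means were taken off (red above 0, blue below 0), with lines between the roles. The row of Ndc80 is pale throughout, and the reddest pair is Mcm6 with Pcna at 0.883.

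Some members followed the rest more closely than others. Kif20a, the kinesin of the midzone, correlated at 0.87 with the mean of the other 38, Bub1b at 0.85, Plk1 at 0.82, Prc1 at 0.82 and Kif23 at 0.81. The median r of a member with the mean of all 39, itself included, was 0.763. Ndc80 was at 0.00, although its partner Nuf2 was at 0.80, and the pair itself was at -0.12. The mean of Ndc80, 6.76, was above the dim level of 6.54 but near it, with an SD of 0.101 and a lowest array at 6.52. Other low values of r were 0.36 for Birc5, 0.39 for Aurka, 0.44 for Smc4, 0.46 for Mcm5 and 0.52 for Smc2.

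Removing the lower quartile moved the weakly tied members in different directions. Aurka went to 0.60 and Mcm5 to 0.71, while Smc4 went to 0.22, Smc2 to 0.33 and the dim Hmmr from 0.57 to 0.36. Ndc80 remained low at 0.14. The part of the signal distribution in these values was not tested further.

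Replication and mitosis genes were not separate blocks. The mean of the 9 replication genes and the mean of the 30 mitosis genes correlated at 0.848. The median pair r was 0.629 among replication genes, 0.536 among mitosis genes and 0.524 across them. By role, the replication mean correlated at 0.904 with that of kinases and checkpoint genes, at 0.848 with that of the cyclins, Cdk1 and Cdc25c, and at 0.486 with that of the chromosome structure genes. The spindle and chromosome structure means correlated with each other at 0.838. The closest pairs after Mcm6 with Pcna were Bub1 with Kif11 (0.863), Cdk1 with Bub1b (0.814) and Cenpf with Kif20a (0.812). The lowest pair was Aurka with Hmmr (-0.173).

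Cell cycle genes outside the 39 varied with them. The mean of 40 further mitosis genes correlated with the mean of the members at 0.98, that of 32 licensing and fork genes at 0.891, that of 10 inhibitors at 0.868, that of 10 G1 cyclins and kinases at 0.860 and that of 17 transcription factors at 0.850. Of the further mitosis genes, 38 of 40 were positive, led by Cks2 (0.85), a Cdk1-binding protein, Racgap1 (0.85), the partner of Kif23, Kif2c (0.81) and Kif22 (0.80). Of the licensing and fork genes, 31 of 32 were positive. Rfc4, a clamp loader subunit, was at 0.82, Pole at 0.76, Chek1 at 0.72 and Rfc3 at 0.71. The exception was Tk1, a thymidine kinase, at -0.31. Among all 19899 other genes, the median r was 0.087 and 55.7% were positive. Among those above the dim level the median was 0.268 and 72.9% were positive, and among dim genes these values were -0.275 and 13.2%. Counts of positive genes in the lists are to be read against these shares.

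Both activators and inhibitors of the cycle were positive. In the G1 list, 10 of 10 genes were, with Cdk4 at 0.72, Cdk2 at 0.68, Cdk6 at 0.68 and Cdc25a at 0.67. In the inhibitor list, 10 of 10 were, with Cdkn2c at 0.68, Cdkn1b at 0.64, Gadd45g at 0.64 and Wee1 at 0.62. Of the 17 transcription factors, 16 were positive, with Lin9, a DREAM subunit, at 0.68, E2f6 at 0.59, Mybl1 at 0.54 and Mycn at 0.52. The B-MYB gene Mybl2 was at -0.01.

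Among genes outside the 39 as a whole, the 10 with the highest r were Cks2 (0.854), Actl6a (0.849), Racgap1 (0.846), Ska2 (0.837), Cdca7 (0.834), Rfc4 (0.823), Saal1 (0.819), Poglut1 (0.818), Kif2c (0.814) and Dusp4 (0.810). The 10 with the lowest r were H2-Eb1 (-0.725), Mylk3 (-0.704), Ankrd33b (-0.692), Olfr433 (-0.682), Pramel5 (-0.679), Cd80 (-0.679), Pkp3 (-0.677), Nyx (-0.677), Prss47 (-0.674) and Ip6k3 (-0.672). Each of the 10 low genes also correlated with the lower quartile of the array, between 0.548 and 0.742. That quartile's part in their values was not tested.

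The means of radial glia and intermediate progenitor genes went with the members. Those of vascular and postmitotic neuron genes, given below, did so less strongly. The mean of 11 radial glia genes correlated with the mean of the members at 0.821, and 9 of the 11 were positive, where 72.9% of all genes above the dim level were. Highest were Prom1 (0.70), Nes (0.65), Vim (0.64) and Emx2 (0.61). Sox2 was at 0.21, and Fabp7 and Hes5 were at -0.23 each. The mean of 10 intermediate progenitor genes was at 0.709, with Eomes (Tbr2) at 0.70, Sstr2 at 0.66, Neurog2 at 0.55 and Dll1 at 0.53. Ganglionic eminence genes reached 0.357, with 7 of 9 positive and Gsx1 at -0.39. Cerebellar granule progenitor genes reached 0.279, with 7 of 9 positive and Gli1 at -0.40. These arrays hold RNA of whole brains, so the cells that carried the signals were not measured. All 11 radial glia genes and all 10 intermediate progenitor genes were above the dim level. With the lower quartile taken off, the radial glia value was 0.777 and the intermediate progenitor value 0.808.

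Other cell types gave values of both signs. The mean of 12 vascular genes correlated at 0.595, with 12 of 12 positive, and that of 9 microglia genes at 0.280. The mean of 13 genes of postmitotic neurons correlated at 0.609, but the median of its genes was 0.067. Neurod2 (0.59), Tbr1 (0.57), Neurod6 (0.42) and Tubb3 (0.38) were highest in size there, while Stmn2 was at -0.24. Astrocyte genes gave -0.196, with 5 of 10 positive and 5 negative. Gfap was at -0.59, S100b at -0.58, Gjb6 at 0.55 and Aldh1l1 at 0.38. The oligodendrocyte lineage genes gave -0.227. Choroid plexus genes gave 0.256, pituitary genes -0.157 and bone and cartilage genes -0.163.

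Skeletal muscle genes and genes of the hindbrain and spinal cord were negative. Skeletal muscle genes gave -0.543, with 12 of 12 negative and Tnnc2, Ckm, Tnnt3 and Ttn the lowest at -0.55, -0.55, -0.51 and -0.46. Of these 12 genes, 7 were above the dim level, and the mean of all 12 correlated at 0.838 with the lower quartile. With the lower quartile taken off, the muscle value was -0.258. Hox genes and Slc6a5, which mark hindbrain and spinal cord, gave -0.370 with 14 of 14 negative, and -0.236 with the lower quartile taken off. Of these 14 genes 7 were above the dim level, and among all dim genes only 13.2% were positive. Erythroid genes, of which 3 of 6 were above the dim level, gave -0.352, and 0.207 with the lower quartile taken off. The part of tissue carried along in dissection was not tested.

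As a mean, synapse genes, which mark maturing neurons, were not clearly opposed to the cell cycle genes in the values as deposited. Of 30 synapse genes, 26 were measured, all above the dim level. Their mean correlated with that of the members at r = -0.084 (Spearman rho -0.212) over the 60 arrays with group means taken off. By gene, 17 were negative and 9 positive, whereas 72.9% of all genes above the dim level were positive. Shank2, a postsynaptic scaffold, was at -0.63, Pclo, an active zone scaffold, at -0.44, Cplx1, a regulator of vesicle fusion, at 0.36 and Rab3a at 0.32. Without the 10 arrays whose Pon1 went against the label, r was 0.073, and without the pair of arrays farthest from the median it was -0.20. Those were R-tg 0 replicates 4 and 1.

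The opposition appeared when the signal distribution of the arrays was handled otherwise. With the lower quartile taken off, r was -0.366 (rho -0.407), and with each array centred on its median it was -0.499. With group means left in, both means correlated with the lower quartile in the same direction, the members at -0.519 and the synapse genes at -0.429. Gria1, a glutamate receptor subunit, then went from -0.23 to -0.62, Pclo from -0.44 to -0.55, Shank1 from -0.21 to -0.52 and Gria2 from -0.11 to -0.51. Among the members, Hmmr went from -0.05 to -0.58 with the synapse mean, Rrm1 from -0.15 to -0.52 and Smc4 from -0.12 to -0.49. Anln (0.33 to 0.05) and Ttk (0.23 to 0.09) were positive both ways. The size of this relation thus depended on the scaling, and its sign in the values as deposited on which arrays were kept. The mean of the 13 postmitotic neuron genes, by contrast, was at 0.409 with the lower quartile taken off, and the median of those genes at -0.027.

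**Figure D3:**
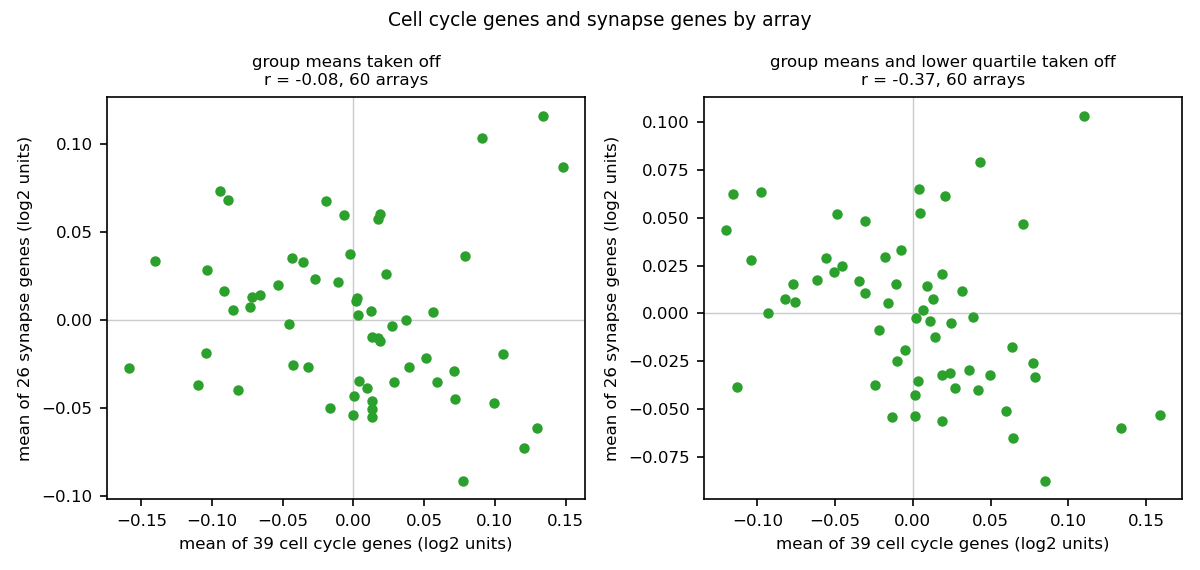
Mean of 26 synapse genes against the mean of 39 cell cycle genes on each of 60 arrays, both in log2 units and centred. With group means taken off (left) the points have r = -0.084, and with the lower quartile also taken off (right) r = -0.366.

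Between the labelled groups, the mean of the members differed little against its spread. Its pooled SD within groups was 0.077 log2 units. Group means ran from -0.046 in KO 0.75 to 0.053 in WT 0.75. The highest arrays were R-tg 0.85 replicate 5 (0.186), R-tg 0 replicate 1 (0.147) and WT 0.75 replicate 3 (0.132). The lowest were R-tg 0 replicate 4 (-0.160), R-tg 0.75 replicate 4 (-0.132) and WT 0.85 replicate 4 (-0.132). The untreated R-tg group thus held both a very high and a very low array, and every pair of groups overlapped. Group membership accounted for a median of 18.3% of a member's variance, from 7.87% for Mcm3 to 32.2% for Mcm4, against 18.4% for all genes.

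**Figure D4:**
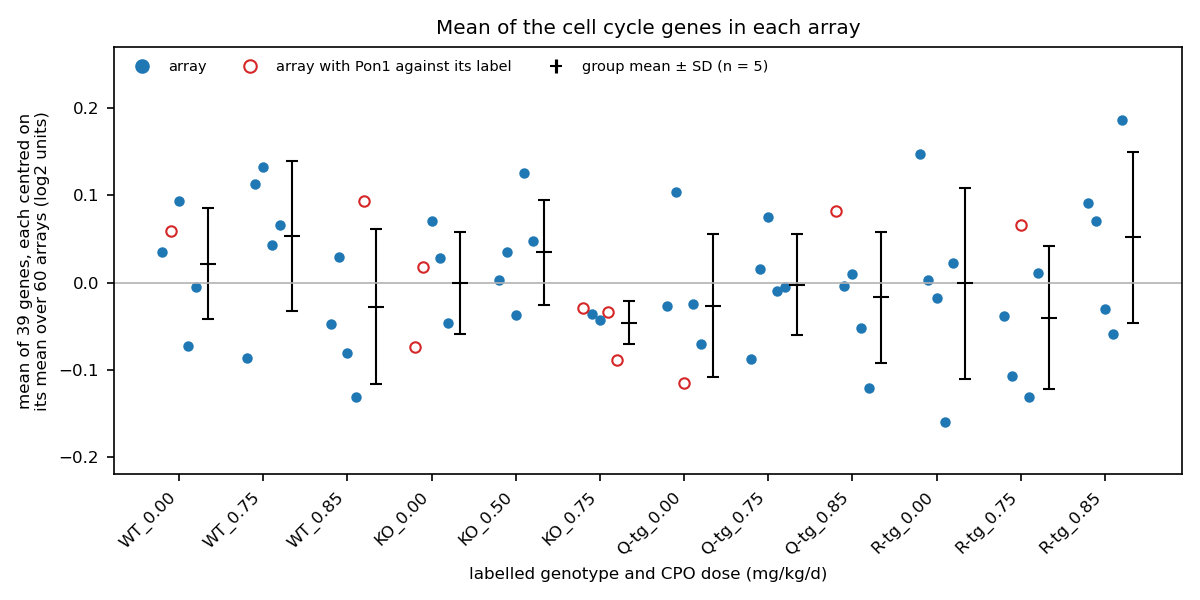
Mean of the 39 genes on each array, every gene centred on its mean over 60 arrays (log2 units), by labelled genotype and CPO dose; bars are group mean ± SD (n = 5) and open red circles are arrays whose Pon1 went against the label. The groups overlap, and R-tg at dose 0 spans -0.160 to 0.147.

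No member passed the test in any comparison. A limma model of the 12 groups gave 21 contrasts and an F test over the groups, with Benjamini-Hochberg adjustment over 21789 transcript clusters and a threshold of 0.05. In each of them 0 of 39 members were called. Over all transcript clusters the share called was 0% in each comparison except the difference between R-tg and WT in the response to 0.75, where it was 0.00459%, a single cluster that is no member. The smallest adjusted p of a member over the 21 contrasts was 0.315, for Nuf2 in that same comparison. Without the 10 arrays, 0 members were called as well. The share of all clusters called was then 0.133% for KO minus WT at dose 0 (29 clusters), 0.00459% for the response at 0.85 in R-tg minus Q-tg (1 cluster) and 0.363% in the F test (79 clusters), and 0% in the other comparisons. The median SE of a member was 0.068 log2 units for a dose within a genotype and 0.095 for a difference of responses. The 95% intervals of all members lay within -0.332 and 0.377 for the 8 contrasts of a dose.

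In WT, the lower and the higher dose gave medians of opposite sign, and both share the untreated arrays. At 0.75 the median of the members was 0.028, with 26 of 39 above 0, beside 0.005 for all transcript clusters. At 0.85 it was -0.048, with 33 of 39 below 0, beside 0.009. For clusters above the dim level, as nearly all members are, the medians were 0.021 at 0.75 and 0.0008 at 0.85. One member at 0.75 and 3 at 0.85 had an unadjusted limma p under 0.05, where 10.2% and 2.15% of all clusters did. The lower quartile was on average 6.36 in WT 0, 6.28 in WT 0.75 and 6.39 in WT 0.85, and its part in these medians was not tested. Without the arrays against their label the medians of the members were 0.033 and -0.058. With the lower quartile in the model, the mean of the members at 0.75 went from 0.032 to -0.010. Leaving out 1 array at a time moved that mean between 0.008 (without untreated replicate 4) and 0.067 (without treated replicate 1). The mean at 0.85, -0.049, moved between -0.079 (without treated replicate 5) and -0.023 (without treated replicate 4).

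At the higher dose in WT the largest differences were those of Smc4, Mcm4 and Top2a. Mcm4 was at 8.24, 8.20, 8.29, 8.12 and 8.21 on the 5 arrays of WT 0 and at 8.04, 8.13, 7.98, 8.05 and 8.12 on those of WT 0.85. Only 1 untreated array fell among the treated ones. The log2 difference was -0.15 ± 0.058 (SE) and the adjusted p was 1.00 in limma. Top2a gave -0.14 ± 0.059. Cenpe, the kinetochore motor, was the member with p under 0.05 at 0.75. Its values were 7.21, 7.32, 7.36, 7.14 and 7.26 untreated and 7.27, 7.49, 7.56, 7.34 and 7.41 treated, a difference of 0.16 ± 0.069 (adjusted p = 0.464).

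In the arrays labelled KO, the median was 0.039 at 0.50 (30 of 39 above 0) and -0.039 at 0.75 (33 of 39 below 0), beside 0.00025 and -0.020 for all clusters. Clusters above the dim level gave 0.003 and -0.024. Members with p under 0.05 numbered 0 at 0.50, where 1.84% of clusters had it, and 1 at 0.75, where 2.9% had it. That member was Ttk, the kinase of the spindle checkpoint. Its values were 6.68, 6.69, 6.84, 6.74 and 6.76 at dose 0 and 6.60, 6.62, 6.44, 6.62 and 6.57 at 0.75. All these values lay near the dim level of 6.54. The difference was -0.17 ± 0.064 and the adjusted p was 0.999 in limma. Of these 10 arrays 5 had a high Pon1, and without them the difference was -0.25 ± 0.095 over 3 and 2 arrays. Centring each array on its median moved the mean of the members at 0.75 from -0.045 to -0.022. With 1 array left out it lay between -0.064 and -0.028, without untreated replicates 1 and 3. The mean at 0.50, 0.035, lay between 0.013 and 0.053, without treated replicates 4 and 3.

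In the arrays labelled Q-tg, the median was 0.019 at 0.75 (30 of 39 above 0) and -0.005 at 0.85 (21 of 39 below 0), beside 0.004 and 0.014 for all clusters. Clusters above the dim level gave 0.009 and 0.017. Cdc25c was the only member with p under 0.05 at either dose, where 2.35% and 3.86% of clusters had it. It was at 6.63, 6.91, 6.68, 6.68 and 6.80 at dose 0, at 6.86, 6.92, 6.94, 6.77 and 7.03 at 0.75, and at 6.93, 6.91, 6.95, 6.88 and 6.73 at 0.85. The treated arrays lay mostly above the untreated ones, with overlap in both cases. The differences were 0.16 ± 0.064 and 0.14 ± 0.064 (adjusted p = 1.00 and 0.999). Both rest on the same untreated arrays, which were also the ones below WT: the values of WT 0 were 6.84, 7.08, 7.04, 6.87 and 6.94. Without the arrays against their label, the mean of the members went from 0.024 to 0.002 at 0.75 and from 0.009 to -0.038 at 0.85. Leaving out untreated replicate 2 alone gave 0.057 and 0.042.

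In the arrays labelled R-tg, the median was -0.038 at 0.75 (29 of 39 below 0) and 0.053 at 0.85 (33 of 39 above 0), beside -0.016 and -0.008 for all clusters. Clusters above the dim level gave -0.025 and -0.015. One member had p under 0.05 at 0.75, where 5.31% of clusters had it, and 2 at 0.85, where 4.86% had it. Smc4, a condensin subunit, was at 8.67, 8.72, 8.69, 8.30 and 8.88 at dose 0 and at 8.95, 8.86, 8.81, 8.84 and 8.91 at 0.85. The untreated replicate 4 lay far below all others, and replicate 5 lay among the treated arrays. The difference was 0.22 ± 0.078 and the adjusted p was 0.987 in limma. Top2a gave 0.12 ± 0.059. Nuf2 was at 7.78, 7.59, 7.62, 7.39 and 7.58 untreated and at 7.52, 7.36, 7.52, 7.27 and 7.51 at 0.75, a difference of -0.15 ± 0.065 (adjusted p = 0.898). Both medians rest on an untreated group with 2 extreme arrays. Leaving out untreated replicate 4 changed the mean of the members at 0.85 from 0.053 to 0.013, and leaving out replicate 1 changed it to 0.090. The mean at 0.75 went from -0.039 to -0.079 without replicate 4, to -0.002 without replicate 1 and to -0.003 with each array centred on its median.

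Averaged over genotypes, the medians of the members lay close to those of all clusters. At 0.75 over 4 genotypes the median was -0.007 and at 0.85 over 3 genotypes it was 0.004, beside -0.010 and 0.004 for all clusters. The 95% intervals of all members lay between -0.133 and 0.140 at 0.75 and between -0.122 and 0.146 at 0.85. Ttk, at -0.069 ± 0.032, was the 1 member with p under 0.05 at 0.75, where 4.08% of clusters had it. At 0.85 the count was 0, and 1.67% of clusters had it.

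Between labelled genotypes at dose 0, the differences of the members from WT were mostly below 0. The median was -0.016 for KO (29 of 39 below 0), -0.045 for Q-tg (35 of 39) and -0.030 for R-tg (28 of 39), beside 0.018, 0.004 and 0.013 for all clusters. Clusters above the dim level gave 0.022, -0.005 and 0.015 in the same contrasts. These contrasts share the WT arrays. R-tg minus Q-tg gave 0.028, beside 0.010 for all clusters and 0.021 for those above the dim level. The means of the members for R-tg rest on single untreated R-tg arrays. R-tg minus WT went from -0.023 to -0.060 without replicate 1 and to 0.017 without replicate 4, and R-tg minus Q-tg went from 0.026 to -0.012 and to 0.065. The counts of members with p under 0.05 were 0 of 39 for KO, 1 for Q-tg, 1 for R-tg and 1 for R-tg against Q-tg, where 3.25%, 1.66%, 3.93% and 5.43% of clusters had it. Cdc25c was at -0.21 ± 0.064 in Q-tg (adjusted p = 1.00), and Smc4 was at -0.17 ± 0.078 in R-tg. Without the arrays against their label the medians for KO, Q-tg and R-tg minus WT were 0.005, -0.007 and -0.019, with 19, 26 and 22 of 39 members below 0.

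**Figure D5:**
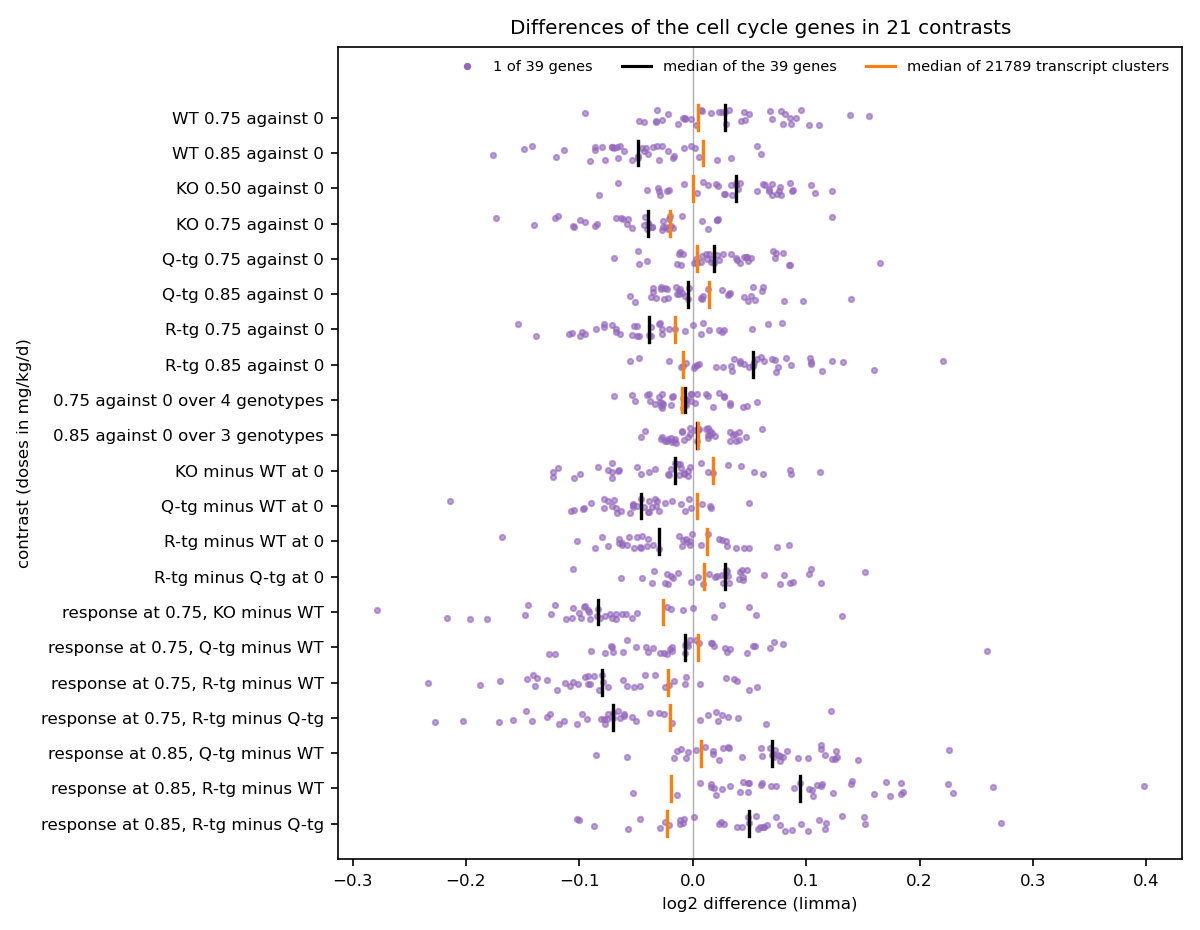
Log2 difference of each of the 39 genes (points) in 21 limma contrasts, with the median of the 39 (black) and of 21789 transcript clusters (orange). The black mark lies farthest right, at 0.094, for the response at 0.85 in R-tg minus WT, where Smc4 is at 0.40.

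Differences of the CPO response between genotypes gave the widest shifts, with larger SEs. At 0.85 the response in R-tg minus that in WT had a median of 0.094, with 37 of 39 above 0, beside -0.019 for all clusters. Members with p under 0.05 were Smc4, Top2a, Ccna2 and Mcm4, 4 of 39, where 4.76% of clusters had it. Smc4 gave 0.40 ± 0.110, the lowest unadjusted p of a member in any contrast, with an adjusted p of 0.998, and Top2a gave 0.26 ± 0.084. In WT, Smc4 was at 8.74, 8.86, 8.86, 8.82 and 8.82 untreated and at 8.57, 8.95, 8.73, 8.36 and 8.61 at 0.85. The treated WT arrays thus spread to both sides of the untreated ones, though 4 of the 5 lay below all of them. Without the arrays against their label the median was 0.119, with 37 of 39 above 0. Leaving out 1 array at a time moved the mean of the members between 0.062 and 0.139, both ends set by an untreated R-tg array.

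The other responses had the following values. At 0.85, Q-tg minus WT gave a median of 0.070 (32 of 39 above 0) and R-tg minus Q-tg one of 0.050 (27 of 39). All clusters gave 0.007 and -0.023 there, and those above the dim level 0.018 and -0.034. The mean of the members in R-tg minus Q-tg, 0.043, was 0.003 without untreated R-tg replicate 4 and 0.090 without the arrays against their label. In each, 1 member had p under 0.05, Cdc25c and Smc4, where 1.87% and 8.2% of clusters had it. At 0.75, KO minus WT gave -0.084 (34 of 39 below 0), Q-tg minus WT -0.007, R-tg minus WT -0.080 (33 of 39 below 0) and R-tg minus Q-tg -0.070 (30 of 39). In that order, all clusters gave -0.026, 0.004, -0.022 and -0.020, and those above the dim level -0.046, -0.007, -0.047 and -0.034. Of all clusters, 40.9%, 52.2%, 43.5% and 42.1% were above 0. Members with p under 0.05 numbered 2 (Bub1 and Ttk), 1 (Cdc25c), 1 (Nuf2) and 2 (Cdc25c and Nuf2), where 7.59%, 2.23%, 13% and 5.81% of clusters had it. In KO minus WT, Bub1 was at -0.28 ± 0.117 and Ttk at -0.20 ± 0.090. With the lower quartile in the model, the means of the members in KO minus WT and R-tg minus WT went from -0.077 to -0.035 and from -0.071 to -0.016. In the F test, 3 members had p under 0.05 (Smc4, Mcm4 and Cdc25c), where 4.84% of clusters had it, and the smallest adjusted p was 0.950.

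Side by side, the cell cycle and synapse genes took opposite signs in the response of R-tg to the higher dose. In R-tg 0.85 against 0, 33 of 39 members were above 0 and 24 of 26 synapse genes below 0, with medians of 0.053 and -0.071. Of all clusters, 45.1% were above 0 there, and the median of those above the dim level was -0.015. Shank1 and Bsn, scaffolds of the synapse, were at -0.19 each. In R-tg minus WT at 0.85, 37 of 39 members were above 0 and 23 of 26 synapse genes below 0. Of all clusters, 41.9% were above 0 in that comparison. At R-tg 0.75, in contrast, both lists were mostly below 0, with 29 of 39 and 22 of 26, and at WT 0.75 both were mostly above 0, with 26 of 39 and 21 of 26. Of all clusters, 41.0% were above 0 in the former and 52.2% in the latter. No synapse gene was called in any contrast. The contrasts of a genotype share their untreated arrays. Without untreated R-tg replicate 4, the mean of the members at R-tg 0.85 went from 0.053 to 0.013.

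The counts of further cell cycle and progenitor genes in these contrasts are given beside the share of all clusters, and no gene was called. In R-tg 0.85 against 0, where 45.1% of all clusters were above 0, 30 of 40 further mitosis genes were above 0, led by Aspm (0.14) and Cenpk (0.13), and 7 of 10 intermediate progenitor genes were, led by Neurog2 (0.21), while 15 of 32 licensing and fork genes were. In KO 0.75, where 37.0% of all clusters were above 0, 31 of 40 further mitosis genes and 27 of 32 licensing and fork genes were below 0, with Cdc6, the licensing factor, at -0.21. In WT 0.85, where 56.4% of all clusters were above 0, 30 of 40 further mitosis genes, 18 of 32 licensing and fork genes and 9 of 10 inhibitors were below 0, with Rb1 at -0.14.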

How the data were processed

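Values are log2 signals as deposited, made by the authors with RMA in the oligo package under R 2.15.1, per the submitters' processing notes, and no further normalization was applied. Of 28858 transcript clusters, 21789 had exactly 1 symbol in the platform annotation and were tested. The 12 labelled groups were fitted in limma 3.58.1 (R 4.3.3) over all 60 arrays. Tests were 2-sided, with Benjamini-Hochberg adjustment over the 21789 clusters of a comparison.

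Correlations were computed in Python 3.11.15 with NumPy 2.4.6, over 60 arrays after group means were taken off. They are descriptions and carry no p-value. The lower quartile of an array was taken over the 21789 clusters with exactly 1 symbol. The number of arrays limits the precision.

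The members and gene lists were chosen with earlier results of these data known. All members are named. Of other lists, up to 4 genes with the largest absolute value are named, together with single genes chosen after their values were seen, such as Tk1, Mybl2, Sox2, Fabp7, Hes5 and Stmn2. On simulated data for WT 0.75 against 0, with 50 of 21789 clusters changed at each size, 62% of changes of 0.25 log2 units and 94% of changes of 0.5 were recovered. Clusters changed by 1 and 2 log2 units were in the same run. Noise was drawn independently for each cluster, whereas genes of the real arrays varied together. These shares thus do not give the power of the comparisons above, where almost no cluster was called. Alternatives are described in the closing section.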

Additional observations from a re-analysis of the deposited data

Results flagged for a closer look

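In each group of 5 arrays, the highest and lowest values of every member and of every mean were compared with the other 4 arrays. Of 600 such groups, 41 (6.83%) held an array that stood apart by Dixon's test at 0.710, where chance gives about 1 in 20. Among the means, the mean of the 39 genes was lowest on KO 0.75 replicate 5 (-0.089), the replication mean was highest on WT 0.85 replicate 5 (0.133) and the replication mean was lowest on KO 0 replicate 1 (-0.089). Also apart were the mean of the cyclins, Cdk1 and Cdc25c on WT 0.75 replicate 1 (-0.210, lowest), the mean of the cyclins, Cdk1 and Cdc25c on WT 0.85 replicate 5 (0.160, highest), the mean of the chromosomal passenger complex on WT 0.85 replicate 5 (0.194, highest) and the replication mean minus the mitosis mean on R-tg 0.75 replicate 1 (-0.096, lowest).

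Apart on WT 0.75 replicate 1 were Pcna (10.11, lowest), Cdk1 (8.66, lowest), Plk1 (7.91, lowest), Bub1 (7.91, lowest), Tpx2 (7.99, lowest) and Anln (7.35, lowest). On WT 0.85 replicate 5, the genes apart from the other 4 arrays were Mcm6 (8.43, highest), Mcm7 (9.18, highest), Cdk1 (9.15, highest), Cdc25c (7.06, highest) and Birc5 (7.33, highest). Apart on KO 0.50 replicate 4 were Cenpf (8.24, highest), Kif20a (7.87, highest) and Anln (7.66, highest). On KO 0.50 replicate 3, the genes apart from the other 4 arrays were Mcm2 (8.43, lowest) and Aurkb (8.23, lowest). Apart on Q-tg 0.75 replicate 3 were Aurka (7.95, highest) and Mki67 (9.08, highest). On R-tg 0.75 replicate 4, the genes apart from the other 4 arrays were Smc2 (8.13, lowest) and Smc4 (8.50, lowest).

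Single genes stood apart on the other arrays. They included Mcm2 of 8.31 (lowest) on KO 0 replicate 1, Mcm2 of 8.76 (highest) on R-tg 0.85 replicate 5 and Mcm4 of 7.998 (lowest) on Q-tg 0.75 replicate 1. Further values were Mcm5 of 8.54 (highest) on R-tg 0 replicate 3, Mcm6 of 8.004 (lowest) on WT 0 replicate 4 and Mcm7 of 9.08 (highest) on Q-tg 0.85 replicate 1. Further values were Ccna2 of 9.56 (highest) on WT 0 replicate 1, Ccnb2 of 9.39 (highest) on R-tg 0.75 replicate 3 and Cdc25c of 6.73 (lowest) on Q-tg 0.85 replicate 5. Further values were Ndc80 of 6.53 (lowest) on Q-tg 0 replicate 3, Kif11 of 8.20 (lowest) on KO 0 replicate 5 and Hmmr of 6.77 (highest) on KO 0 replicate 3. Further values were Anln of 7.45 (highest) on Q-tg 0 replicate 2 and Mki67 of 8.82 (lowest) on R-tg 0 replicate 4.

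Of the 22 arrays with a value apart, 6 are among the 10 of 60 whose Pon1 went against the label, and they hold 14 of the 41 values. They are KO 0 replicate 1, KO 0.75 replicate 5, WT 0.85 replicate 5, Q-tg 0 replicate 3, Q-tg 0.85 replicate 1 and R-tg 0.75 replicate 3. Most of the 14 are the means and genes of WT 0.85 replicate 5 listed above, which share members or vary together. The cause of these values was not tested.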

How the results depend on the processing

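The count of members called was 0 in all 21 contrasts and in the F test under each of several settings. These were a trended and robust variance prior, weighted arrays, dim clusters left out, and clusters of any annotation kept in. Others were arrays centred on their median, and the replicate block, the sex ratio or the lower quartile as covariate. It was also 0 in fits of the contrast's groups alone, which had no F test. In 60 fits that each lacked a single array, it was 0 in the F test and in the contrasts using that array's group. At an unadjusted p under 0.05 the highest count was 14 of 39, with array weights, for the response at 0.85 in R-tg minus WT, and the F test then gave 10. Without weights these counts were 4 and 3. The share of all clusters under array weights is not given here, so the counts of 14 and 10 cannot be read as particular to the members. Array weights and the lower quartile as covariate on the mean of the members were chosen after seeing the data. The correlation with the synapse genes was -0.084 as deposited, -0.499 with each array centred on its median and -0.366 with the lower quartile taken off, and between -0.215 and -0.025 with 1 array left out. The median pair correlation was between 0.507 and 0.544 with 1 array left out and 0.459 with arrays centred. Replicate numbers did not pair arrays: the median correlation of deviations was -0.016 for the same number in different groups and 0.007 for other numbers, and 12 of 60 arrays were closest to their own number. With the replicate block, the median pair correlation was 0.526, the synapse correlation was -0.010 and 0 members were called. In simulated data for WT 0.75 against 0, 62% of changes of 0.25 log2 units were recovered with 5 arrays per group, and smaller changes were not simulated. That run held larger changes as well and independent noise, so it does not give the power of the real comparisons.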

Other observations

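With the lower quartile of the arrays taken off, the gene outside the 39 with the highest r with their mean was Mdk, the growth factor midkine, at 0.873, and Melk and Ube2c, both mitosis genes, followed among the next at 0.834 and 0.828. The lowest were Trank1 (-0.721), Gabrb2 (-0.701), a GABA receptor subunit, and Scn1a (-0.695), a neuronal sodium channel. Purb, Rgs17 and Stox2 followed at -0.692, -0.691 and -0.674, and Grin3a and Dlg2, a glutamate receptor subunit and a synaptic scaffold, at -0.670 and -0.659. As deposited, Trank1 was at -0.094 and Scn1a at -0.261. These genes were named after their values were seen.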
